A study of Mus musculus with 3 samples.

Results

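The epithelial sodium channel and the sodium pump carry sodium out of the tubular fluid of the distal nephron and collecting duct. Their 9 genes examined here were found by gene symbol, as all probe sets whose single annotated symbol is Scnn1a, Scnn1b, Scnn1g, Hsd11b2, Nedd4l, Atp1b1, Fxyd2, Fxyd4 or Fxyd5, which gave 21 of the 45037 probe sets that are not array controls. Kidney RNA from 3 C57BL/6 mice was hybridised to Affymetrix mouse arrays, 1 array per mouse. The arrays are from 2 mice given acetate (C2) at 200 mM in the drinking water for 6 weeks, starting at 3 weeks of age, and from 1 control mouse. Neither the salt in which acetate was given nor what the control mouse drank is given in the sources used here. The question is how these sodium transport genes stand in the kidney after weeks of oral acetate.

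The channel is a trimer of the alpha, beta and gamma subunits, and it lets sodium enter principal cells from the urine. Aldosterone, acting through the mineralocorticoid receptor, raises channel activity, in part through the kinase Sgk1, which restrains the ubiquitin ligase encoded by Nedd4l. On the blood side of the same cell the sodium pump, an alpha and a beta subunit accompanied by a small FXYD protein, drives sodium out. The enzyme encoded by Hsd11b2 inactivates corticosterone in these cells and so keeps it from the mineralocorticoid receptor.

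All values are deposited log2 expression values, on which a difference of 1 is a 2-fold change, and differences are acetate minus control. Array medians were 4.94 and 4.93 in acetate-fed mouse 1 and mouse 2 and 4.91 in the control mouse. Kidney markers were high on every array, with Umod of the thick ascending limb at 13.67 and 13.64 in the acetate-fed kidneys and 13.53 in the control kidney. Of the 21 probe sets, 19 had a mean value among the highest 60% and were tested, at least 1 for each of the 9 genes. The test was limma with Benjamini-Hochberg adjustment over the 27022 probe sets kept, with 1 residual degree of freedom from the acetate-fed pair. With 1 control array, the fit takes its variation to be that of the acetate-fed pair, and every difference holds whatever was particular to the 1 control kidney. In whole kidney RNA, fewer cells of a type and less RNA per cell cannot be told apart.

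Fxyd5 was the 1 member that rose in the acetate-fed kidneys, at about 2-fold in each mouse. The 3 channel subunit genes, Hsd11b2 and Fxyd4 were all below the control in acetate-fed mouse 1 and above it in acetate-fed mouse 2. Atp1b1 lay slightly above the control in both mice, and the bright Fxyd2 probe sets lay within 0.07 of it. By limma, 1 of the 19 probe sets passed as higher and 0 as lower at an adjusted p of 0.05, against 4.01% higher and 3.08% lower among all probe sets tested. At an unadjusted p under 0.05 there were 2 member probe sets, both higher, against 15% of all probe sets tested, so the members did not exceed that share. The median difference over the 19 was 0.083, against 0 over all probe sets tested.

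**Figure D1:**
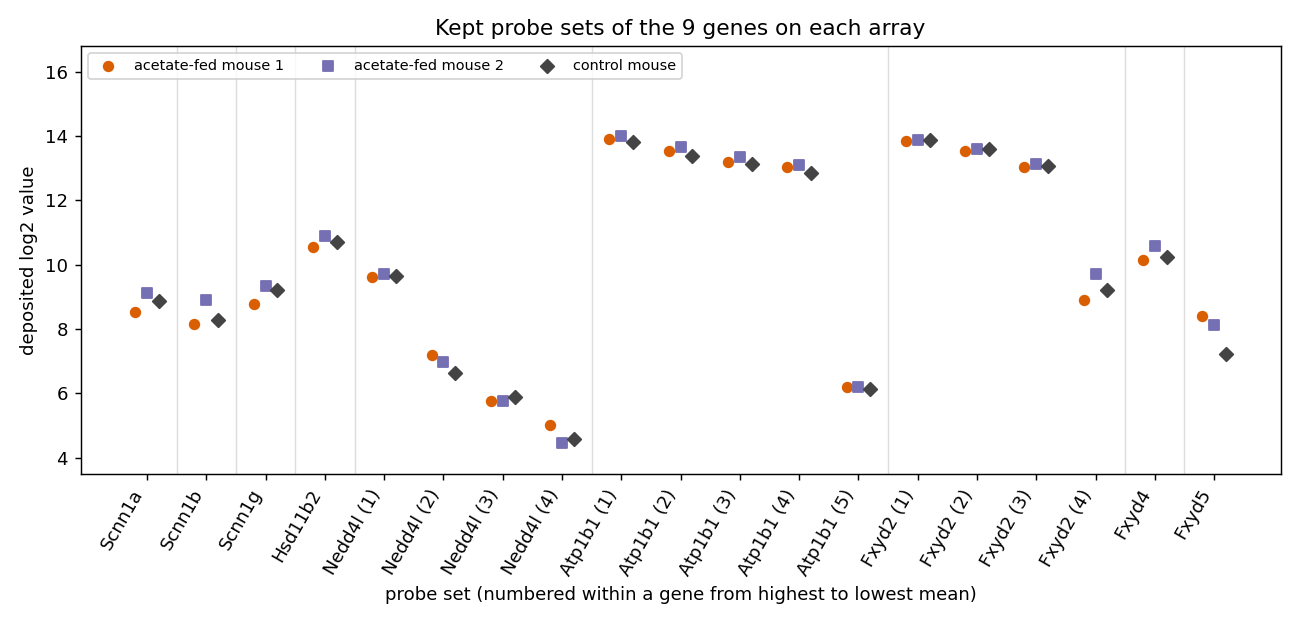
Deposited log2 values of the 19 tested probe sets of the 9 genes (vertical axis) on each array; circles are acetate-fed mouse 1, squares acetate-fed mouse 2 and diamonds the control mouse, and numbers order a gene's probe sets by mean. Fxyd5 is the 1 gene whose acetate-fed values both lie far above the control, while the control lies between the acetate-fed values for the 3 channel subunits, Hsd11b2 and Fxyd4.

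The channel subunits came out on opposite sides of the control in the acetate-fed mice. Scnn1a, the alpha subunit (probe set 1425088_at), was 8.54 in acetate-fed mouse 1 and 9.13 in acetate-fed mouse 2, against 8.86 in the control mouse. Scnn1b, the beta subunit (1418475_at), was 8.15 and 8.90 in the acetate-fed mice, against 8.27 in the control. Scnn1g, the gamma subunit (1419079_at), was 8.76 and 9.34 in the acetate-fed mice, against 9.21 in the control. For each subunit mouse 1 was the lowest and mouse 2 the highest of the 3 kidneys, and the acetate-fed and control values overlap. The mean difference was -0.03 ± 0.16 for Scnn1a, 0.25 ± 0.18 for Scnn1b and -0.16 ± 0.16 for Scnn1g (limma estimate ± SE), with limma adjusted p values of 1, 0.704 and 0.983. Set against the control, Scnn1b stood 1.54-fold above it in mouse 2 and 1.09-fold below it in mouse 1, and Scnn1g was 1.36-fold below it in mouse 1. Because the control lay between the acetate-fed mice, the gap between these mice is necessarily larger than either difference. Mouse 2 was 1.51-fold above mouse 1 for Scnn1a, 1.68-fold for Scnn1b and 1.49-fold for Scnn1g.

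Hsd11b2 (1416761_at) followed the same order, at 10.54 and 10.87 in the acetate-fed mice and 10.71 in the control mouse. Its mean difference from the control was 0.00 ± 0.13 (SE; limma adjusted p = 1), and mouse 2 was 1.26-fold above mouse 1. Fxyd4 encodes the corticosteroid-induced pump modulator known as CHIF, which is found in the collecting duct. Fxyd4 (1418207_at) was 10.16 and 10.59 in the acetate-fed mice and 10.23 in the control, a mean difference of 0.14 ± 0.14 (SE; limma adjusted p = 0.974). Mouse 2 was 1.35-fold above mouse 1, while mouse 1 was 1.05-fold below the control.

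The order with mouse 1 below and mouse 2 above the control held for 8 of the 19 member probe sets, against 5.64% of all probe sets tested, of which 9893 equalled the control in at least 1 mouse and could not show it. Besides the 5 genes just described, these were 1 Nedd4l and 2 Fxyd2 probe sets, and probe sets of 1 gene share its transcripts. The count sets no minimum size. In mouse 1 and mouse 2 the Nedd4l probe set differed from the control by only -0.021 and 0.076, and 1 of the Fxyd2 probe sets by -0.047 and 0.048. The opposite order was found at 1 of the 19, against 3.36% of all, and 7 were above and 3 below the control in both mice, against 26.9% and 27.5% of all. Mouse 2 was at least 1.2-fold above mouse 1 at 6 of the 19, against 4.42% of all, and at least 1.5-fold above it at 3 of the 19, against 0.477% of all. These limits on the gap between the mice were chosen after the values were seen, and with 1 array per mouse the gap has no test.

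**Figure D2:**
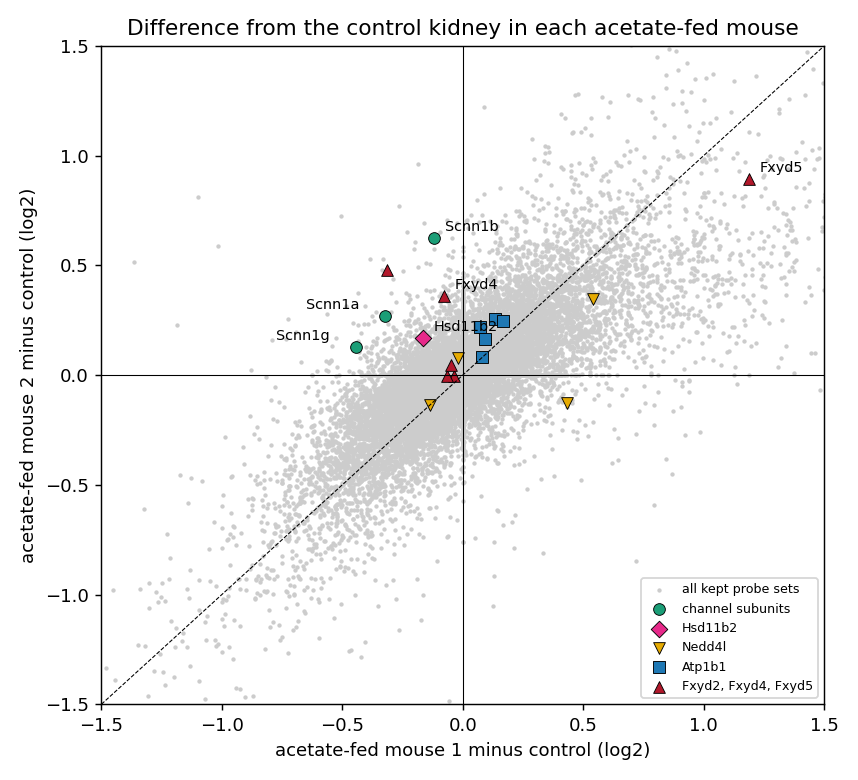
Difference from the control kidney in acetate-fed mouse 1 (horizontal axis, log2) and acetate-fed mouse 2 (vertical axis, log2) for all 27022 tested probe sets (grey) and the 19 member probe sets (coloured by gene group); axes end at 1.5 on either side, the dashed line marks equal differences, and both axes share the control array. The channel subunits, Hsd11b2 and Fxyd4 lie in the upper left, with mouse 1 below and mouse 2 above the control, and Fxyd5 lies at the upper right.

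Markers of principal cells, which house the channel, and of neighbouring distal cell types were also higher in mouse 2 than in mouse 1. All 7 principal cell markers (Aqp2, Aqp3, Aqp4, Avpr2, Kcnj1, Elf5 and Gata3), all 5 measured intercalated cell markers and all 4 distal convoluted tubule markers were higher in mouse 2, as were 3 of 4 thick ascending limb markers, Umod being the exception. That makes 19 of 20, against 35.7% of all probe sets tested and 53.8% of those whose acetate-fed values were not tied. The 20 are genes, each at its brightest tested probe set, while the shares are over probe sets, so the units are unlike. The median gap was 0.38 for principal cell, 0.42 for intercalated cell, 0.25 for distal convoluted tubule and 0.25 for thick ascending limb markers. Leukocyte and fibroblast markers ran the other way, with all 14 higher in mouse 1 than in mouse 2. Of the other lists, 2 of 6 proximal tubule, 2 of 5 endothelial and 0 of 5 urothelial markers were higher in mouse 2 than in mouse 1. The summed level of the principal cell markers was 12.95 and 13.43 in the acetate-fed mice and 12.62 in the control, on the log2 scale, and that of the intercalated cell markers was 11.46 and 11.85, against 11.69 in the control. These sums add unlogged values and lean on the brightest markers, Aqp2 among the principal cell markers. The median marker differed from the control by 0.12 and 0.35 in mouse 1 and mouse 2 for principal cells, and by -0.25 and 0.03 for intercalated cells. The part of these cell populations in the subunits' gap between mice was not tested.

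Against the control, principal cell markers were mixed. The water channel gene Aqp2 was 11.93 and 12.55 in the acetate-fed kidneys, both above the control at 11.43, and Aqp4 was 9.04 and 9.36 against 8.45. Both rose by limma, with adjusted p values of 0.000628 and 0.000641. Avpr2, the vasopressin receptor, resembled the subunits in order, at 8.49 and 8.87 in the acetate-fed mice and 8.57 in the control. Of the 7 principal cell markers 4 were above the control in both mice, 2 (Avpr2 and Elf5) had the order of the subunits, and Gata3 equalled the control in mouse 1. Whether these markers differ from the subunits was not tested.

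**Figure D3:**
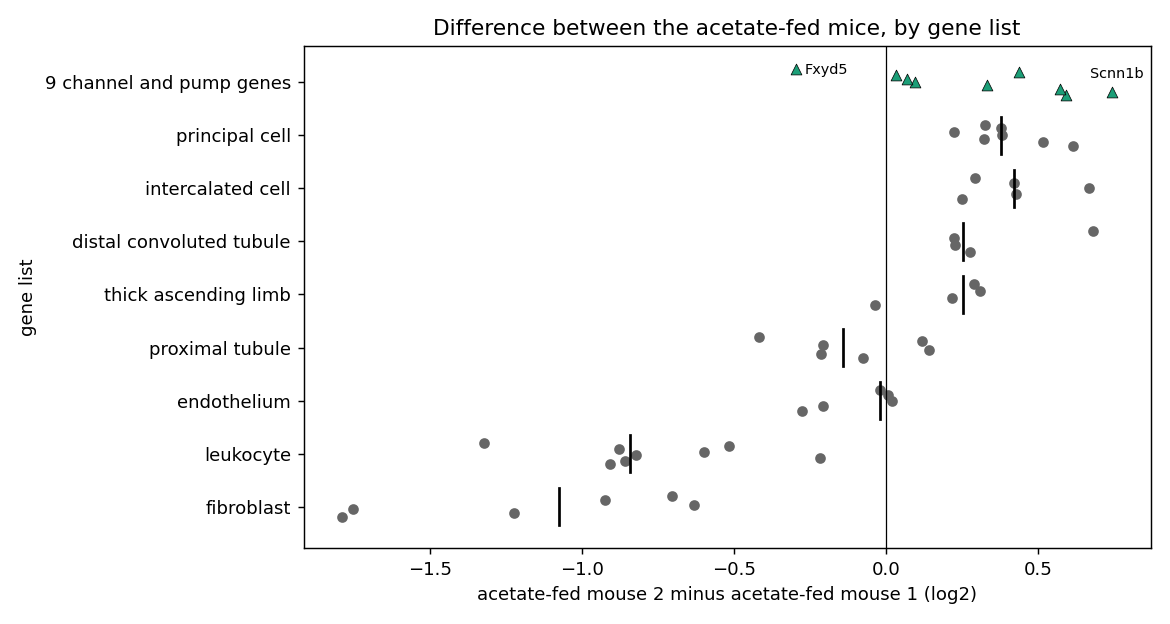
Acetate-fed mouse 2 minus acetate-fed mouse 1 (horizontal axis, log2) for the representative probe sets of the 9 channel and pump genes (triangles) and for marker genes of 8 cell types (points; vertical bars are list medians). Of the 9 genes, 8 lie right of 0, as do 53.8% of all tested probe sets without tied acetate-fed values. Of these 8, Nedd4l, Atp1b1 and Fxyd2 lie close to 0, at 0.097, 0.071 and 0.032. Most of the distal nephron and collecting duct markers also lie right of 0. Fxyd5, at -0.296, lies left of 0, as do all leukocyte and fibroblast markers (medians -0.84 and -1.07) and some proximal tubule and endothelial markers.

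The promoters of the genes that parted between the mice and of the gene that rose are shown for their sequence context, where one was at hand. Scnn1a and Hsd11b2 also parted between the mice and are not shown. The sequences come from RefSeq (GRCm38.p6). Promoters of 5 of the 9 genes were searched, each running from 250 bases before to 50 bases after an annotated start. The other genes were either absent from that source or left out of the search. Scnn1g and Scnn1b are neighbours on chromosome 7 with 0 protein-coding genes between them. Capitals mark the GC box GGGCGG on either strand, which binds transcription factors of the Sp family.
Scnn1b, chr7:121864788-121865087, plus strand: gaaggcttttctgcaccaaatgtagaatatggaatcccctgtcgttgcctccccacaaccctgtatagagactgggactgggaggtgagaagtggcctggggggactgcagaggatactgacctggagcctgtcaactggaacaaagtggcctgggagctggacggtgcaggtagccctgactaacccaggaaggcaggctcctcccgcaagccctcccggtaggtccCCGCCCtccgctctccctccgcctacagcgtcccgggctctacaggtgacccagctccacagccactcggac
Scnn1g, chr7:121734229-121734528, plus strand: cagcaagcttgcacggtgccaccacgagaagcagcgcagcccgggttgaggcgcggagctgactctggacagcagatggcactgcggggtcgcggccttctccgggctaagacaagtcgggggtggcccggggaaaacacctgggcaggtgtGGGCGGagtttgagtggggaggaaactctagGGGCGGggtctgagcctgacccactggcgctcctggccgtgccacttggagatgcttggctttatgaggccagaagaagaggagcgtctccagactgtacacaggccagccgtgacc
Fxyd4, chr6:117937286-117937585, minus strand: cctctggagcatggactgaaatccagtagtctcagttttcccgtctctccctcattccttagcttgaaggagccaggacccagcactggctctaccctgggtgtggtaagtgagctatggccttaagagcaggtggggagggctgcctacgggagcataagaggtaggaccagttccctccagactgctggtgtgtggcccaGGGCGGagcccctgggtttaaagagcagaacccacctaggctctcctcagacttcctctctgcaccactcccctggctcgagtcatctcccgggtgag
Fxyd5, chr7:31042282-31042581, minus strand: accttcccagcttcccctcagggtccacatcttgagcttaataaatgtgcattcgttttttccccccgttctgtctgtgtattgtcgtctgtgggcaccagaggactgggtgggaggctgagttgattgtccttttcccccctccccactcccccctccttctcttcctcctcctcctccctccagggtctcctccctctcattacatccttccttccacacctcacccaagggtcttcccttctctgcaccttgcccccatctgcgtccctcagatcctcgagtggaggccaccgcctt

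The GC box occurred 1 time in the Scnn1b promoter, first base 22 bases before the start, 2 times in Scnn1g, at 98 and 67 bases before the start, and 1 time in Fxyd4, at 48 bases. The Fxyd5 window held 0 matches, and 35.7% of the 32851 promoters searched held at least 1. The full palindrome of the corticosteroid response element, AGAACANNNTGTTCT, and its single arm TGTTCT, which is contained in it, had 0 matches on either strand of these 4 windows. Of all promoters, 0.00913% held the palindrome and 19% the single arm. The TATA box TATAAA also had 0 matches in these 4 windows, against 13.6% of all promoters with at least 1. The Atp1b1 window, searched but not shown, held 2 GC boxes, at 205 and 124 bases before the start, and 0 matches to the other motifs. A match or its lack describes these letters in these windows and nothing further.

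Fxyd5 encodes dysadherin, an FXYD protein that modulates the pump and cell adhesion and that is also found outside the tubule. Fxyd5 (1418296_at) was 8.41 in acetate-fed mouse 1 and 8.11 in acetate-fed mouse 2, against 7.22 in the control mouse. Both acetate-fed kidneys lay above the control, 2.28-fold in mouse 1 and 1.86-fold in mouse 2. The mean difference was 1.04 ± 0.15 (SE; limma adjusted p = 1.36e-05). It was the 1 member probe set of 19 at least 1.5-fold higher in both mice, against 1.67% of all probe sets tested, and 0 members were at least 1.5-fold lower in both, against 1.23%. The limma call ended after quantile normalization (adjusted p = 0.368), after median centring (adjusted p = 0.191) and with ordinary variance moderation (adjusted p = 0.346), while the difference stayed between 1.02 and 1.05.

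All 8 leukocyte and all 6 fibroblast markers were above the control in both acetate-fed mice, as Fxyd5 was and as 26.9% of all probe sets tested were. The same held for all 5 endothelial and all 4 thick ascending limb markers, so it is not particular to leukocytes and fibroblasts. The summed level of the markers was 13.43 and 12.73 in the acetate-fed kidneys and 11.64 in the control for leukocytes, and 12.95 and 11.69 against 10.89 for fibroblasts. These sums also lean on the brightest markers, such as Cd74 for leukocytes. The median marker was above the control by 1.65 and 0.93 in mouse 1 and mouse 2 for leukocytes, and by 1.72 and 0.75 for fibroblasts. The leukocyte antigen gene Ptprc was 7.80 and 6.89 in the acetate-fed mice and 5.89 in the control, and the collagen gene Col1a1 was 9.54 and 7.75 against 6.74. The part of these cells in the Fxyd5 difference was not tested. Of 13464 other genes tested, the 3 whose differences from the control were closest to those of Fxyd5 in both mice were Sla, Igfbp2 and Nfkbiz, at distances of 0.059, 0.066 and 0.08 on the log2 scale over 3 arrays. In all 5 genes lay within 0.1.

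Atp1b1, the beta subunit of the pump, was among the brightest genes on the arrays. Its brightest probe set (1423890_x_at) was 13.92 and 13.99 in the acetate-fed mice and 13.82 in the control mouse. All 5 Atp1b1 probe sets were above the control in both mice, by 1.05-fold to 1.19-fold, and the groups did not overlap at any of them. Higher values in both mice were found at 26.9% of all probe sets tested, as given above. The mean difference of the brightest was 0.13 ± 0.11 (SE; limma adjusted p = 0.864), and 0 of the 5 passed limma's test (0 at an unadjusted p under 0.05, against 15% of all probe sets tested). The dimmest (1455949_at), at 6.21 in both acetate-fed mice and 6.13 in the control, had exactly tied acetate-fed values. The probe sets of this gene share transcripts and are not separate evidence.

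Fxyd2 encodes the gamma subunit of the pump, which lowers its affinity for sodium. Its brightest probe set (1419378_a_at) was 13.84 and 13.87 in the acetate-fed mice and 13.87 in the control mouse. The other 2 bright probe sets also lay within 0.07 of the control in each mouse. The fourth (1449883_at), annotated to a non-coding Fxyd2 transcript record, was 8.90 and 9.70 in the acetate-fed mice against 9.22 in the control. That probe set therefore had the order of the channel subunits, with mouse 2 1.73-fold above mouse 1 and a mean difference of 0.08 ± 0.18 (SE; limma adjusted p = 1).

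Nedd4l encodes the ligase known as NEDD4-2, which marks channel subunits for removal from the cell surface. The brightest of its 4 tested probe sets (1423269_a_at) was 9.62 and 9.72 in the acetate-fed mice and 9.64 in the control mouse, a mean difference of 0.03 ± 0.13 (SE; limma adjusted p = 1). Its other tested probe sets disagreed with it and with each other. One of them (1457374_at) was 7.17 and 6.98 in the acetate-fed mice and 6.63 in the control, a mean difference of 0.44 ± 0.15 (SE) that did not pass (limma adjusted p = 0.0801). Another (1441305_at) was 5.75 in both acetate-fed mice and 5.89 in the control, and the dimmest tested (1437400_at) was 5.02 and 4.46 against 4.59. The remaining 2 Nedd4l probe sets, with means of 3.53 and 3.10, fell below the level for testing.

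Genes that act on the channel or more widely on distal sodium transport were drawn from a list of 16. Of these, 14 were tested, and 4 rose and 0 fell by limma, against 4.01% and 3.08% of all probe sets tested. In both mice 9 of the 14 were above and 3 below the control, against 26.9% and 27.5% of all. The deubiquitinating enzyme gene Usp2, 1 form of which counteracts Nedd4l at the channel and which is also a clock-controlled gene, was 10.61 and 11.10 in the acetate-fed mice and 9.71 in the control. Usp2 thus rose 1.86-fold in mouse 1 and 2.62-fold in mouse 2 (1.14 ± 0.15, SE; limma adjusted p = 2.83e-06), and its second tested probe set gave 0.84 and 1.37. Sgk1, the aldosterone-induced kinase, was 11.74 and 11.71 against 11.04, a rise of 0.69 ± 0.12 (SE; limma adjusted p = 0.000181). Both genes were at least 1.5-fold above the control in each acetate-fed mouse, which the channel subunits were not.

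Wnk1, a kinase of distal sodium transport, was 11.51 and 11.65 in the acetate-fed mice and 10.97 in the control at its brightest probe set, and rose by limma (adjusted p = 0.000965). Its other 2 tested probe sets, at mean differences of -0.01 and 0.00, did not. St14, the protease matriptase, rose by 0.47 ± 0.14 (SE; limma adjusted p = 0.0291). The channel-activating proteases Prss8 and Furin were below the control in both mice, with mean differences of -0.27 and -0.32 that did not pass (limma adjusted p = 0.267 and 0.239).

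Corticosteroid receptors and target genes formed a list of 7, all tested, of which 4 rose and 0 fell by limma, against 4.01% and 3.08% of all probe sets tested. The mineralocorticoid receptor gene Nr3c2 was 6.69 and 6.72 in the acetate-fed mice and 6.64 in the control, and the glucocorticoid receptor gene Nr3c1 differed from the control by 0.01 and -0.07. The targets Zbtb16 (a transcription factor), Fkbp5, Tsc22d3 (the leucine zipper protein GILZ) and Per1 were the 4 that rose, with mean differences of 1.99, 1.48, 1.05 and 0.74 and limma adjusted p values of 2.32e-10, 3.09e-09, 1.37e-06 and 0.00147. Fkbp5, which encodes a chaperone of steroid receptors, was 9.61 and 9.68 in the acetate-fed mice against 8.17 in the control. Per1 is also a core clock gene, and the labels do not give the hour at which each kidney was taken. The list was drawn up with earlier results of the same data known, so its counts are not independent evidence of a direction.

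Of 10 other pump subunit and FXYD genes listed, 5 were tested, and 1 rose and 0 fell by limma, against 4.01% and 3.08% of all probe sets tested. Fxyd3 was 6.61 and 6.43 in the acetate-fed mice and 6.01 in the control (0.51 ± 0.16, SE; limma adjusted p = 0.042). The beta subunit gene Atp1b3 was 10.80 and 10.79 against 10.62, and Fxyd1, phospholemman, was 8.18 and 7.88 against 8.32. Neither passed. Unlike most of the members, 0 of these 5 genes were higher in mouse 2 than in mouse 1, against 35.7% of all probe sets tested. Each limma call on these pathway lists, 9 in all, and those of Aqp2 and Aqp4 were lost after quantile normalization, after median centring and with ordinary variance moderation. In the upper 40% of probe sets only Sgk1, Zbtb16, Fkbp5 and Tsc22d3 of these 11 passed.

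**Figure D4:**
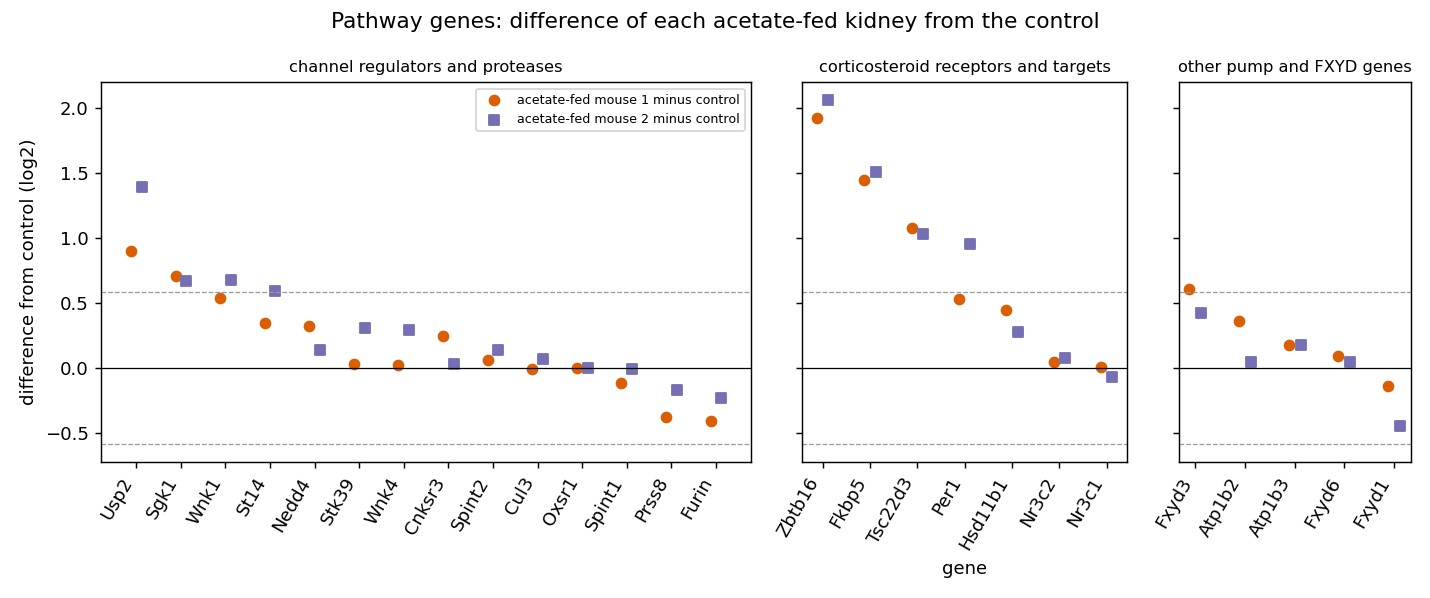
Difference from the control kidney (vertical axis, log2) in acetate-fed mouse 1 (circles) and acetate-fed mouse 2 (squares) for the tested genes of 3 pathway lists, ordered by mean difference; dashed lines mark 1.5-fold. Usp2, Sgk1, Zbtb16, Fkbp5 and Tsc22d3 lie beyond 1.5-fold in both mice, and the receptor genes Nr3c2 and Nr3c1 lie near 0.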

How the data were processed

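Kidney total RNA was amplified, labelled with biotin and hybridised to Affymetrix arrays, per the labels' protocols. The authors deposited a table of log2 values for 45101 probe sets, 64 of them array controls that were left out. The submitters' processing notes name MAS5, and give neither version nor filters in the sources used here. Array medians and quartiles are nearly equal. Among the probe sets kept, 33.7% have exactly tied acetate-fed values; the origin of these ties is unknown.

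Probe sets with 1 symbol in the platform annotation (34945) were named, updated by Entrez identifier; 932 with several and 9160 not listed stayed unnamed. The upper 60% by mean (at least 4.21) were tested, 27022 in all. The fit used limma 3.58.1 in R 4.3.3 with an intensity trend. Because exact ties give spreads near 0, the prior spread was estimated from untied probe sets (26.5 prior degrees of freedom) and applied to all. Leaving out the ties also leaves out the smallest spreads, so p-values lean on a pooled spread more than on the 2 mice and may be too small. A gene is represented by its brightest tested probe set. Counts of list genes are therefore in a different unit from the shares of all probe sets set beside them. All member genes are named, and from each list those past the test or 1.5-fold in both mice, plus up to 4 with the largest differences; a few further list genes are named for their role. Alternatives were 2 normalizations, 2 filters, 3 variance settings, leaving out either acetate-fed mouse, and averaging a gene's probe sets. Members, lists and tests were chosen with earlier results of these data known. Arrays were separate mice per the labels, and their number limits precision. Figures used Python 3.11.15 and matplotlib 3.10.9. Background, saturation and detection are unknown, since only the deposited values were used.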

Additional observations from a re-analysis of the deposited data

How the results depend on the processing

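The count of member probe sets passing limma as higher, 1 in the reported fit, was 0 after quantile normalization and 0 after median centring, where 0 and 25 of 27022 probe sets passed in either direction and 2835 and 3006 had an unadjusted p under 0.05. The prior degrees of freedom fell to 2.45 and 3.53 under these settings, against 26.5 as deposited. The count passing as lower was 1 with no filter on low values (the dim Nedd4l probe set 1423270_at) and 1 with ordinary variance moderation that keeps the ties (the tied Nedd4l probe set 1441305_at), which also called the tied Atp1b1 probe set 1455949_at in place of Fxyd5; the cause was not tested beyond the ties. Over all probe sets, ordinary moderation called 1400 higher and 1446 lower, against 1083 and 833 as reported, and the upper 40% gave 108 and 161. Of the calls of ordinary moderation, 92.3% had exactly tied acetate-fed values, against 3.03% as reported, and its prior degrees of freedom were 0.362. Its larger count is therefore mostly of tied probe sets. Leaving out 1 acetate-fed mouse, with no test possible, gave 1 to 2 member probe sets at least 1.5-fold higher, 0 lower in either case, and a median member difference of -0.038 to 0.169; Scnn1b joined Fxyd5 without acetate-fed mouse 1. Among 323 alternative values of single genes, 285 stayed on their side of the threshold or within the spread of the acetate-fed pair, 36 lost a call, 2 moved and 0 gave a called reversal. The 285 do not measure robustness. Leaving out 1 acetate-fed mouse always moves a mean by less than the pair's spread, and a gene without a call has none to lose. Scnn1a, at -0.323 without mouse 2 and 0.27 without mouse 1, counted as staying in both cases. No paired analysis was possible because the control group has 1 array.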
